A study of Rattus norvegicus with 6 samples.

Results

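The genes described here encode the proteins of the cytosolic ribosome, measured in early granulation tissue, which fills a wound as it heals. Members were all probes whose platform annotation names a ribosomal protein gene of the large (Rpl, Rplp) or small (Rps, Rpsa) subunit, with the ribosomal S6 kinases left out; the rule reads gene symbols and no measured values. The rule found 67 probes of 22517 on the array, 1 for each of 67 genes, with 43 names of the large and 24 of the small subunit. Of these, 61 are subunits of the standard ribosome and 6 were set apart by their names as paralogs or other matches of the pattern (Rpl3l, Rpl22l1, Rpl36al1, Rpl37l1, Rpl7l1 and Rps19bp1).

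The tissue had grown into cellulose pieces with a hydroxyapatite coating, a calcium phosphate mineral, placed subcutaneously in 10-week-old Sprague-Dawley rats. Implants were taken after 72 hours (day 3, rats 6, 4 and 7) or after 24 hours (day 1, rats 1, 2 and 3), so n = 3 rats a day, with 1 Illumina bead array each. All 6 implants carried the same coating, no uncoated implant or uninjured skin was analysed here, and the labels name no further treatment. Signals are log2 of the deposited, quantile-normalized intensity after a background step, and every change is day 3 minus day 1. A probe counts as called when its limma p-value, adjusted by Benjamini-Hochberg over the 11591 probes tested, is under 0.05. Because every array was brought to 1 distribution, a change is relative to the other genes, and the total amount of ribosomal protein mRNA in the tissue was not measured.

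The ribosome translates mRNA into protein: the small subunit reads the message, and the large subunit joins amino acids and sends the chain out through its exit tunnel. Its proteins are needed in near equal numbers, and their mRNAs are among the most abundant of a cell. In mammals these mRNAs begin with a C followed by a stretch of pyrimidines, the terminal oligopyrimidine (TOP) tract, through which mTORC1 and the RNA-binding protein Larp1 control their translation. Production of ribosomes is tied to growth and proliferation, which are features of the granulation phase of wound healing.

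RefSeq start sites of the rat assembly GRCr8 were found for 55 of the 67 genes. Windows of 30 bases, with 15 on each side of the annotated start, are given for the 7 called members with an entry. They show where the longest run of pyrimidines lies against the start, which is not in each case a TOP tract. Windows are also given for the 5 other matches with an entry, because none has a tract at its start. Capitals mark the longest unbroken run of C and T in each window, and the sixteenth base is the annotated start.
Rpl22 (chr5:168117946-168117975, + strand): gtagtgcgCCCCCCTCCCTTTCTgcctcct
Rpl31 (chr9:49143096-49143125, + strand): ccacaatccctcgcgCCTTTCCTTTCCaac
Rpl35 (chr3:43165907-43165936, - strand): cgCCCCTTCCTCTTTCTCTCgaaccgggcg
Rplp1 (chr8:71290858-71290887, - strand): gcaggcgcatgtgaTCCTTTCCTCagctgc
Rpl4 (chr8:73566462-73566491, + strand): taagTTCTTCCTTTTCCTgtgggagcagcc
Rps3 (chr1:163195762-163195791, - strand): TTCCTTTCagcggcgcgcggcagcaagatg
Rpl6 (chr12:41011676-41011705, - strand): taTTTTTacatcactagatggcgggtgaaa
Rpl3l (chr10:14258431-14258460, + strand): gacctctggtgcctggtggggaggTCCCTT
Rpl22l1 (chr2:113683181-113683210, + strand): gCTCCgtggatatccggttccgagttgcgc
Rpl7l1 (chr9:21695703-21695732, + strand): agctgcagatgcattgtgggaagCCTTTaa
Rpl36al1 (chr6:93392244-93392273, - strand): tccgacttccgctccatccgTCCCTTTCCT
Rps19bp1 (chr7:113693009-113693038, - strand): cagcgtgtgggcggggCTTggcagcatgtc
In Rpl22, Rpl31, Rpl35, Rplp1 and Rpl4 the run of pyrimidines covers the annotated start. In Rps3 and Rpl6 it lies upstream of that start, in Rpl6 with T alone, and in Rpl36al1 downstream of it. By the definition in the next paragraph, Rpl22, Rpl31, Rpl35 and Rplp1 have a tract at the start, and Rpl4, Rps3 and Rpl6 do not. Within the windows the longest run measured 5 (Rpl6) to 18 bases (Rpl35) in the 7 called members. In the 5 other matches it measured 3 (Rps19bp1) to 10 bases (Rpl36al1), so the ranges overlap. The runs of Rps3, Rpl3l and Rpl36al1 reach the edge of the window and may be longer than printed.

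A tract at the annotated start, defined as a C there followed by at least 4 bases that are each C or T on the transcript strand, was present in 21 of 50 standard subunits (42.0%). It was present in 722 of the 27457 genes with an entry (2.63%), and in 0 of the 5 other matches with one. Of 14 genes other than ribosomal proteins described as TOP genes, 0 had it by this definition. The tract stood in 14 of 31 large subunit genes (45.2%) and in 7 of 19 small subunit genes (36.8%). The letters CTTTCC, searched on the transcript strand within 25 bases of the start and partly overlapping the tract, were found in 16 of the 50 standard subunits (32%) and in 622 of the 27457 genes (2.27%). On either strand of the whole window of 300 bases, CCGGAAG, a core recognised by ETS factors, was present in 16 of the 50 (32%) and in 9.22% of all genes. AAGATGGC, a core recognised by YY1, was present in 5 of the 50 (10.0%) and in 3.44% of all genes. Of 48 mitochondrial ribosomal protein genes, 2 had the tract (4.17%), 14 had AAGATGGC (29.2%) and 16 had CCGGAAG (33.3%). CCGGAAG was also present in 25 of 51 ribosome biogenesis genes (49.0%), a larger share than in the cytosolic ribosomal proteins. These are matches of letters in a window and not binding sites.

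Ribosomal protein probes lay mostly near the top of the arrays. On every array, 26 of the 67 stood among the brightest 1% of probes and 44 among the brightest 5%. Probes differ in how well they bind, so these positions show where on the scale a change had to be read and do not rank the genes. Of the 67, 62 passed the filter on dim probes, and each of those 62 was above the array median on all 6 arrays, so none passed through 1 day only. The other 5 probes, Rpl11, Rpl12, Rpl34, Rpl36a and Rps19, were below or near the array median of 6.47 and were not tested. Rpl11, a large subunit protein that also binds Mdm2, had signals of 6.11, 6.17 and 6.20 at day 3 and of 6.05, 5.95 and 6.05 at day 1. Rps19, whose human gene is mutated in Diamond-Blackfan anemia, had 6.60, 6.45 and 6.42 at day 3 and 6.53, 6.23 and 6.38 at day 1. A bead array of this kind cannot tell less RNA per cell from fewer cells of a type. The rat annotation lists 839 ribosomal protein pseudogenes, 59 of the 67 members have at least 1 under their own name, and how far such copies share these probes was not tested.

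On the whole, ribosomal protein signals were modestly higher at day 3. Of the 62 tested, 56 had a change above 0, against 44.7% of all tested probes, and the median change was 0.42, or 1.34-fold, against -0.05 over all tested probes. The test called 31.9% of all probes, 16.7% higher and 15.2% lower. It called 10 of the 62 members higher (16.1%), a share near that of all probes. In limma 0 members were called lower. At an unadjusted p under 0.05, 29 of the 62 differed (46.8%), all higher, against 43.5% of all probes in either direction. For 30 of the 62 (48.4%) every day 3 rat was above every day 1 rat, against 23.8% of all probes, and for 0 every day 3 rat was below, against 25.6%. The largest fitted change was 2.00-fold and the most negative 0.861-fold, while changes over all tested probes ran from -3.56 to 5.94 on the log2 scale. The plot of fitted changes gives each member with its interval.

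**Figure D1:**
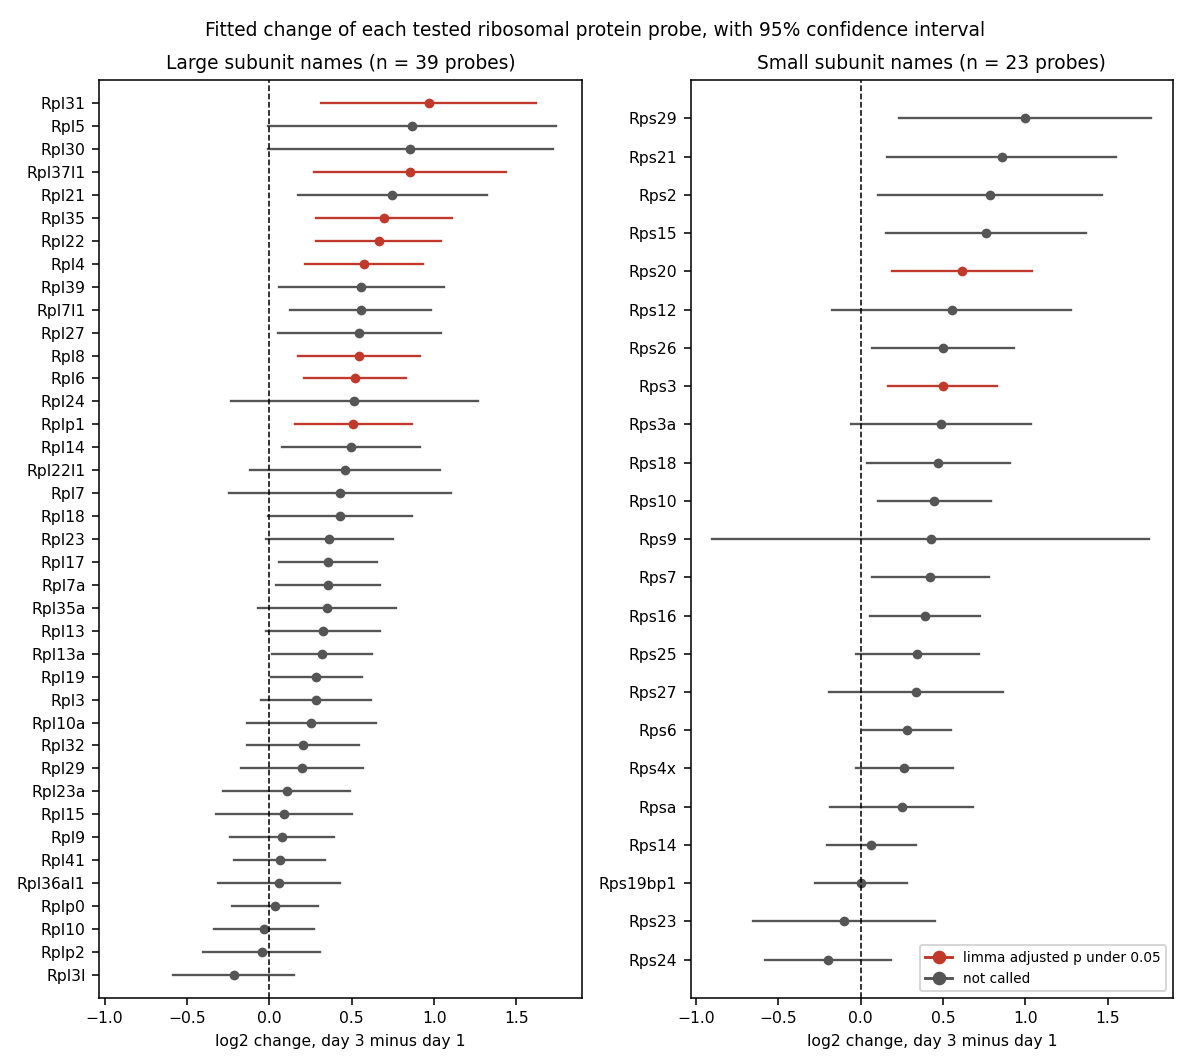
Fitted log2 change (day 3 minus day 1) of each tested ribosomal protein probe, with its 95% confidence interval from limma. Large subunit names stand on the left (39 probes) and small subunit names on the right (23 probes); the 10 called probes are red, and most points lie to the right of 0.

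The called members of the large subunit were Rpl22, Rpl31, Rpl35, Rpl37l1, Rpl4, Rpl6, Rpl8 and Rplp1.

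Rpl31, a protein at the rim of the exit tunnel, had 11.56, 11.23 and 11.18 in day 3 rats 6, 4 and 7, against 10.22, 9.88 and 10.97 in day 1 rats 1, 2 and 3. All day 3 rats were above all day 1 rats, and day 1 rat 3 came closest to them. The change was 0.97 ± 0.277 SE, or 1.95-fold (limma adjusted p = 0.0367). Rpl35, also at the tunnel exit, had 14.38, 14.13 and 14.25 at day 3, against 13.52, 13.27 and 13.89 at day 1. The days did not overlap, and the change was 0.69 ± 0.174 SE (limma adjusted p = 0.0232). Rpl37l1, whose RefSeq entry also lists the symbol Rpl37, so that its place among the other matches rests on its name alone, had 11.75, 10.93 and 11.17 at day 3, against 10.47, 10.11 and 10.71 at day 1, a rise of 1.81-fold. Day 3 rat 6 was the highest of the 6 arrays, and the lowest day 3 rat lay just above the highest day 1 rat.

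Rpl22, an RNA-binding protein on the outer face of the subunit, had 14.47, 14.59 and 14.52 at day 3, against 13.85, 13.58 and 14.15 at day 1. The day 3 rats lay close together (14.53 ± 0.06, against 13.86 ± 0.28 at day 1; SD, n = 3), and the rise was 1.58-fold (limma adjusted p = 0.0201). Rpl4, whose long loop lines the exit tunnel, had 14.58, 14.70 and 14.74 at day 3, against 14.19, 13.81 and 14.29 at day 1, a rise of 1.49-fold. Rpl8, which sits beside the catalytic centre, had 14.51, 14.26 and 14.43 at day 3, against 13.95, 13.57 and 14.04 at day 1, a rise of 1.46-fold. In both genes day 1 rat 2 was the lowest array and no day 1 rat reached the day 3 values.

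Rpl6 was among the brightest probes of the array, with 15.36, 15.32 and 15.34 at day 3, against 14.82, 14.62 and 15.02 at day 1. The rise was 1.43-fold (0.52 ± 0.131 SE, limma adjusted p = 0.0239), and the brightest probe of any array stood at 15.47. The stalk proteins, which recruit elongation factors to the ribosome, did not give like values. Rplp1 had 14.86, 14.69 and 14.64 at day 3, against 14.24, 13.97 and 14.44 at day 1, and rose 1.42-fold (limma adjusted p = 0.0392). Rplp0, the base of the stalk, had 15.30, 15.23 and 15.24 at day 3, against 15.10, 15.27 and 15.29 at day 1 (change 0.03, 95% interval -0.23 to 0.29), with overlapping days. Rplp2, the partner of Rplp1, had 7.41, 6.92 and 7.10 at day 3, against 7.25, 7.19 and 7.12 at day 1 (change -0.05, interval -0.40 to 0.31). The Rplp0 probe stood near the top of the scale and the Rplp2 probe near the array median. With cyclic loess added, the sign turned in both, with -0.13 for Rplp0 and 0.05 for Rplp2.

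Of the small subunit, Rps20 and Rps3 were called. Rps20, a protein of the subunit's head, had 15.06, 14.83 and 14.72 at day 3, against 14.06, 14.11 and 14.60 at day 1, and rose 1.53-fold (0.61 ± 0.18 SE, limma adjusted p = 0.0388). Rps3, at the entry of the mRNA channel and also known as a DNA repair enzyme, had 14.96, 14.93 and 14.91 at day 3, against 14.25, 14.37 and 14.69 at day 1. Its day 3 values spanned little (14.94 ± 0.03, against 14.44 ± 0.23 at day 1; SD, n = 3), and it rose 1.41-fold (limma adjusted p = 0.0339).

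These calls depended on single rats. In limma 0 of the 62 members were called when day 1 rat 1 was left out, where 11.3% of all probes were called higher and 15 members had an unadjusted p under 0.05. Likewise 0 were called for day 3 rat 6 (9.79% of all probes, 15 members at an unadjusted p under 0.05) and for day 3 rat 7 (10% and 17). Leaving out day 3 rat 4 gave 1 call (Rpl37l1, 1.61% of members against 11.1% of all probes), and leaving out day 1 rat 2 gave 4 (Rpl22, Rpl35, Rpl4 and Rpl6, 6.45% against 14%). In these 5 fits the members' share was below that of all probes. Without day 1 rat 3, 33 of the 62 were called higher (53.2%, against 21.5% of all probes), and all 10 of the first were among them. With cyclic loess the calls of Rpl8, Rplp1, Rps20 and Rps3 were lost (limma adjusted p = 0.0540, 0.0596, 0.0543 and 0.0570), and without the filter on dim probes those of Rpl31, Rpl37l1 and Rps20 were (0.0604, 0.0599 and 0.0536). The direction held better than the calls, since 52 to 59 of the 62 had a change above 0 in these 6 fits.

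Several members with larger changes were not called. Rps29, a small zinc-binding protein of the subunit's head, had 14.02, 13.80 and 13.83 at day 3, against 12.73, 12.28 and 13.65 at day 1. Its days did not overlap, its change of 1.00 ± 0.324 SE was the largest of all members, and its limma adjusted p was 0.0539. Rps21 had 14.55, 13.94 and 14.11 at day 3, against 13.32, 12.80 and 13.91 at day 1 (change 0.86, limma adjusted p = 0.0648). Rpl5, which carries the smallest ribosomal RNA into the large subunit, had 9.26, 8.90 and 8.90 at day 3, against 8.12, 7.38 and 8.96 at day 1. Its day 1 values overlapped those of day 3 through rat 3 alone, and its change was 0.86 (interval -0.01 to 1.74, limma adjusted p = 0.118). In all 3 genes day 1 rat 2 was lowest and day 1 rat 3 lay far above the other day 1 rats.

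Rps6, Rpl13a and Rpsa, described for roles beside their place in the ribosome, were not called. Rps6, the substrate of the S6 kinases downstream of mTORC1, had 14.42, 14.33 and 14.48 at day 3, against 14.18, 14.01 and 14.20 at day 1. The days did not overlap, but the change was small, 0.28 (interval 0.01 to 0.55, limma adjusted p = 0.102). Rpl13a, which in human monocytes also leaves the ribosome to silence inflammatory mRNAs, had 12.16, 12.09 and 12.19 at day 3, against 11.86, 11.64 and 12.0006 at day 1 (change 0.32, limma adjusted p = 0.102). Rpsa, also known as a laminin receptor, had 15.15, 15.07 and 15.03 at day 3, against 14.997, 14.43 and 15.08 at day 1 (change 0.25, interval -0.19 to 0.68), with overlapping days. Rps9, singled out after its values were seen, had the widest interval of the tested members, with 12.04, 11.01 and 11.73 at day 3 and 12.49, 10.63 and 10.38 at day 1, so its change of 0.43 has an interval of -0.90 to 1.75.

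The other matches of the rule gave mixed values. Rpl3l, which replaces Rpl3 in the ribosomes of striated muscle, had 8.37, 7.85 and 7.97 at day 3, against 8.26, 8.33 and 8.26 at day 1 (change -0.22, interval -0.58 to 0.15), with overlapping days. Its signal did not set apart the 2 arrays with skeletal muscle signal. Acta1, the actin of skeletal muscle fibres, was high in day 3 rat 6 (13.45) and day 1 rat 3 (13.59), and 6.39 to 8.82 on the other 4 arrays. Of 14 tested muscle markers, 11 were higher on both of these arrays than on all others, and between the days 0 were called higher and 1 lower (Tnnc1, the troponin C of slow fibres, not called without day 1 rat 1, limma adjusted p = 0.0538). Rpl7l1, a factor of large subunit assembly related to Rpl7, had 12.73, 12.67 and 12.71 at day 3, against 12.02, 11.89 and 12.55 at day 1 (change 0.55, limma adjusted p = 0.0548). Rpl22l1, the paralog of Rpl22, had 8.68, 8.40 and 8.42 at day 3, against 7.73, 7.78 and 8.60 at day 1 (change 0.46, interval -0.12 to 1.04). The difference between Rpl22 and Rpl22l1 was not tested. Rpl36al1 had a change of 0.06 (interval -0.31 to 0.43). Rps19bp1, a regulator of the deacetylase Sirt1 and no ribosomal subunit, had 7.82 ± 0.08 at day 3 and 7.82 ± 0.13 at day 1 (SD, n = 3; interval of the change -0.28 to 0.28).

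Median changes of large and small subunit genes lay close together. Of 39 tested large subunit names, 36 had a change above 0 (92.3%) and 8 were called higher (20.5%), with a median change of 0.37. Of 23 small subunit names, 20 had a change above 0 (87.0%) and 2 were called higher (8.70%), with a median of 0.43. Over all tested probes, 44.7% had a change above 0 and 16.7% were called higher. At an unadjusted limma p under 0.05 the order turned, with 17 of the 39 large (43.6%) and 12 of the 23 small subunit names (52.2%). Of all probes, 43.5% were under it in either direction. Days without overlap were found for 18 of the 39 large (46.2%) and 12 of the 23 small subunit names (52.2%), each time with day 3 higher. Of all probes, 23.8% had every day 3 rat above every day 1 rat. To compare the subunits within each rat, the median over probes of the deviation from a probe's own mean over the 6 arrays was taken. The large minus small difference of these medians was 0.05, -0.02 and -0.05 in day 3 rats 6, 4 and 7, and 0.003, -0.01 and 0.02 in day 1 rats 1, 2 and 3. The rats of the days overlapped, averaging -0.01 ± 0.05 for day 3 against 0.003 ± 0.02 for day 1 (SD, n = 3). The difference between the subunits' median changes was -0.06, and it ran from -0.12 to 0.02 when single rats were left out. Members are not replicates of a subunit, so no test was made of it.

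The day 1 rats stood in the same order for both subunits. The median deviation of all 62 members was 0.24, 0.12 and 0.22 in day 3 rats 6, 4 and 7, and -0.17, -0.47 and 0.06 in day 1 rats 1, 2 and 3. The day 3 rats were all above the day 1 rats, and the spread was wider at day 1 (SD 0.262, against 0.0648 at day 3; n = 3 each). Day 1 rat 2 was the lowest of the 6 arrays for 52 of the 62 members, with 33 of 39 large and 19 of 23 small subunit names. Day 1 rat 3 was the highest of its day for 49 of the 62, and it reached into or above the day 3 range for 29. Day 1 rats 1 and 2 were both below all day 3 rats for 44 members. Such counts by rat were not made over all tested probes, so they do not set the members apart from other genes. Without rat 2 the median change was 0.27, and without day 1 rat 3 it was 0.52. The heatmap of deviations shows this order gene by gene.

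**Figure D2:**
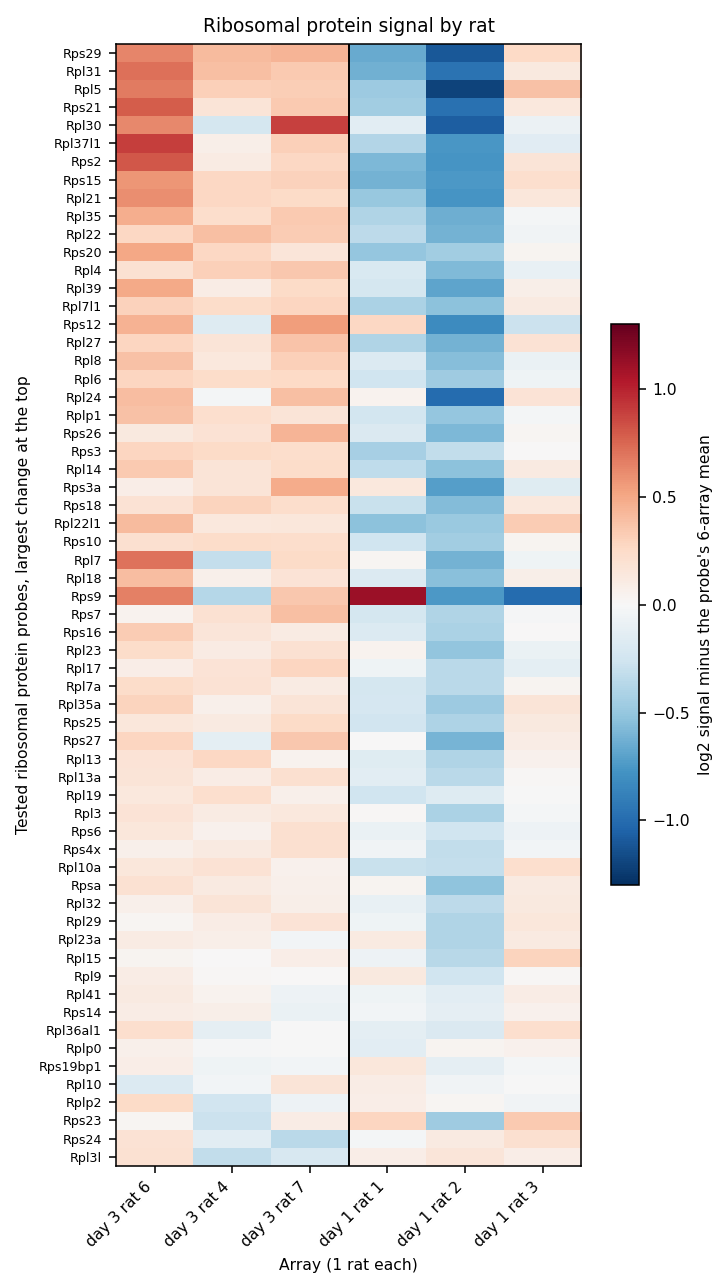
Log2 signal of the 62 tested ribosomal protein probes minus each probe's own mean over the 6 arrays, by rat, with day 3 left of the line and day 1 right of it. Rows run from the largest change at the top (Rps29) to the most negative (Rpl3l); the column of day 1 rat 2 is the bluest for most rows, and day 1 rat 3 is nearer to the day 3 columns.

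By summed signal, day 1 rat 3 also stood apart from the other day 1 rats in fibroblast markers. In endothelial markers day 1 rat 2 did, and in leukocyte markers it did by the sum alone. The median deviation of the leukocyte markers was 0.92, 0.76 and 0.58 in day 1 rats 1, 2 and 3, with rat 2 in the middle. The summed signal of 11 fibroblast markers was 17.33, 17.28 and 17.42 at day 3, against 15.54, 15.48 and 16.36 in day 1 rats 1, 2 and 3 (log2), with Col1a1, a chain of type I collagen, at 14.44, 14.35 and 14.60 against 9.02, 8.77 and 10.15. The summed signal of 11 leukocyte markers was 16.36, 16.53 and 16.49 at day 3, against 17.12, 17.34 and 17.14 in day 1 rats 1, 2 and 3. That of 5 endothelial markers was 13.28, 13.20 and 13.05 at day 3, against 11.97, 11.24 and 12.12 at day 1. Lum, a collagen-binding proteoglycan, and Col3a1, a chain of type III collagen, were higher by 4.74 and 4.43 on the log2 scale, and the endothelial genes Vwf, Emcn and Egfl7 by 2.06, 1.88 and 1.28. The neutrophil granule genes Mmp8 and Elane had changes of -2.56 and -2.52. The call of Emcn was lost when day 3 rat 6, 4 or 7 was left out (limma adjusted p = 0.0604 to 0.0748), and that of Egfl7 for day 1 rat 1, day 3 rat 6 or day 3 rat 7 (0.0584 to 0.0701). Of the lists, 10 of 11 fibroblast and 5 of 5 endothelial markers were called higher, and 9 of 11 leukocyte markers were called lower. The fibroblast marker not called, Fn1, went the other way, with 14.45, 14.62 and 14.44 at day 3 against 14.78, 14.78 and 14.76 at day 1. Fn1 was the brightest of the 11 on each day 1 array, so it weighed most in those sums. The leukocyte gene Ptprc had 7.98, 8.49 and 8.58 at day 3, against 10.46, 10.72 and 10.44 at day 1. Ptprc was called lower (change -2.19, limma adjusted p = 0.000723) and was above the array median of 6.47 on all 6 arrays. These lists moved with the day, and their part in the ribosomal protein values was not tested. Leaving out the 2 arrays with muscle signal gave a median change of 0.46, with 24 of 62 members called higher (38.7%), against 18% of all probes. One of these arrays, day 1 rat 3, left out alone gave 0.52 and 33 calls (53.2%, against 21.5% of all probes). The other, day 3 rat 6, left out alone gave 0 calls (against 9.79% of all probes). The part of muscle signal in these counts was not tested.

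Above a mean signal of 10 the median change was smaller in the brighter bands, and it was near 0 in the dimmest band as well. The 8 members with a mean signal of at least 15 had a median change of 0.09, with 1 called (Rpl6). The 28 members between 14 and 15 had a median of 0.44, with 6 called, and the 18 between 10 and 14 had a median of 0.53, with 3 called. The 8 members under 10 had a median of 0.05, and none was called in limma. Of all tested probes 16.7% were called higher, and that share was not taken by band. The bands were drawn after the values were seen, and the cause was not tested.

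**Figure D3:**
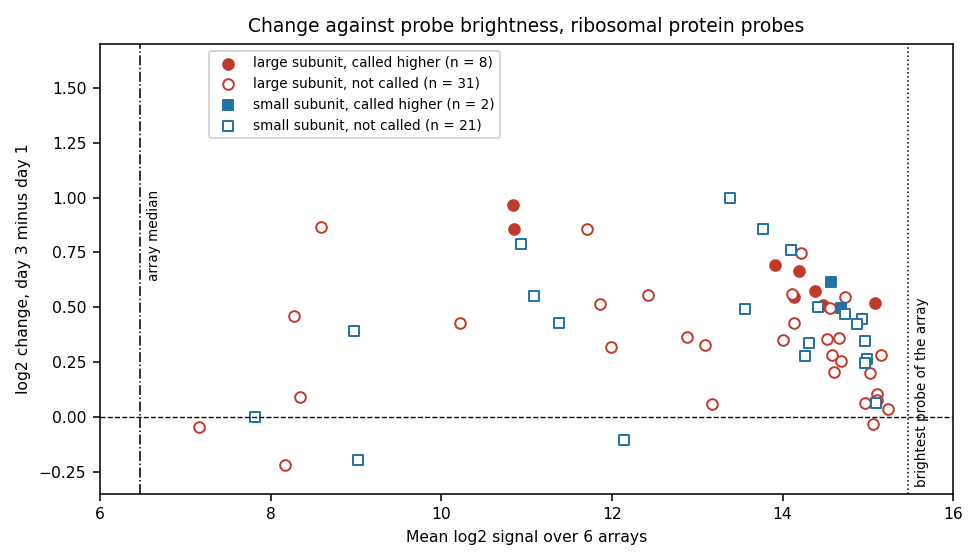
Log2 change (day 3 minus day 1) of the 62 tested probes against their mean log2 signal over 6 arrays; circles are large and squares small subunit names, filled where called higher. Near the dotted line at the brightest probe (15.47), the 8 members with a mean of at least 15 have a median change of 0.09, with Rpl6 (0.52) and Rpl3 (0.28) above the others.

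Members with and without the tract at the annotated start had overlapping changes. The definition depends on where the start is annotated, and by it 0 of 14 other genes described as TOP genes had the tract. Members counted as without it, such as Rpl4, may thus still carry a tract on their mRNA. The 20 tested standard subunits with it had a median change of 0.45 (range -0.03 to 0.97, 4 called). The 25 without it had a median of 0.37 (range -0.20 to 0.86, 3 called). Of all tested probes, 16.7% were called higher.

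Other genes of the pathway were taken from lists made for this comparison. Their counts stand against all tested probes, of which 44.7% had a change above 0, 16.7% were called higher and 15.2% lower. Rack1, a small subunit protein that the symbol rule does not reach, had 14.65, 14.58 and 14.66 at day 3, against 14.15, 14.16 and 14.40 at day 1. It rose 1.31-fold (limma adjusted p = 0.0413), and the call was lost without each rat but day 1 rat 3 (adjusted p = 0.0876 to 0.129), with cyclic loess (0.0949) and with an intensity trend (0.0539). Of 18 tested genes other than ribosomal proteins whose mRNAs are described as carrying a TOP tract, 14 had a change above 0 (77.8%). In limma 3 were called higher (Eef1d, Eef2 and Rack1) and 0 lower, with a median of 0.22. The share called higher was 16.7%, as over all tested probes.

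Of 56 tested mitochondrial ribosomal proteins, which form the separate ribosome of that organelle, 45 had a change above 0 (80.4%), with a median of 0.33. Of these 56, 9 were called higher (16.1%, near the 16.7% of all tested probes) and 1 lower (1.79%, against 15.2%). By rat, their median deviation was 0.25, 0.09 and 0.14 at day 3, against -0.17, -0.38 and 0.07 at day 1, the same order of day 1 rats as in the cytosolic set. The difference between both kinds of ribosome was not tested. Without single rats, 2 to 27 of the 56 were called.

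**Figure D4:**
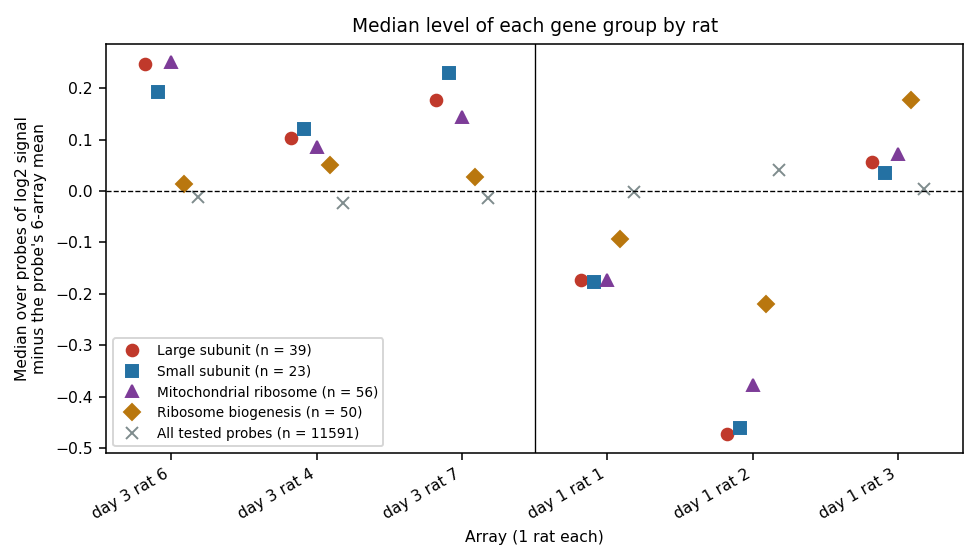
Median, over the tested probes of each gene group, of log2 signal minus the probe's own 6-array mean, by rat, with day 3 left of the line. Large and small subunit medians lie close together on every array and are lowest in day 1 rat 2; the medians of all 11591 tested probes stay near 0.

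Of 50 tested ribosome biogenesis factors, which make and fold ribosomal RNA and assemble the subunits, 4 were called higher and 2 lower. These shares, 8.0% and 4.0%, were below the 16.7% and 15.2% of all tested probes, and the median change was 0.09. Fbl, the methyltransferase of ribosomal RNA, had 13.02, 12.70 and 12.74 at day 3, against 11.83, 11.50 and 12.54 at day 1, and rose 1.82-fold. Gar1, of the particles that make pseudouridine, rose 1.79-fold, with 11.55, 11.51 and 11.44 at day 3 against 10.57, 10.15 and 11.25 at day 1. Both calls were lost without each rat but day 1 rat 3, with adjusted p = 0.0888 to 0.14 for Fbl and 0.0912 to 0.132 for Gar1. Wdr75, a factor of small subunit processing, rose 1.67-fold (limma adjusted p = 0.011) and was called in all 6 fits without a rat. Without single rats, 1 to 19 of the 50 were called.

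Of 33 tested initiation and elongation factors, 6 were called higher (18.2%, against 16.7% of all tested probes) and 1 lower (3.03%, against 15.2%). Their median change was 0.21. Eef1d, which reloads the factor that brings transfer RNA, had 13.89, 13.65 and 13.56 at day 3, against 12.81, 12.31 and 13.37 at day 1, and rose 1.83-fold. Its call was lost without each rat but day 1 rat 3 (adjusted p = 0.0749 to 0.136). Eef2, which moves the ribosome along the message, rose by 0.59 on the log2 scale, with 14.46, 14.31 and 14.46 at day 3 against 13.83, 13.61 and 14.03 at day 1. Its limma adjusted p was 0.0609 when day 1 rat 1 was left out, 0.0707 for day 3 rat 6 and 0.0737 for day 3 rat 7. Eef2k, the kinase that inhibits Eef2, rose 1.61-fold, with 9.52, 9.74 and 9.69 at day 3 against 9.05, 9.04 and 8.79 at day 1. Without single rats, 1 to 14 of the 33 were called.

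Genes that control translation or the growth pathways behind it moved both ways. Of 28 tested, 4 were called higher (14.3%, against 16.7% of all tested probes) and 5 lower (17.9%, against 15.2%). Their median was -0.07, and 3 to 11 were called without single rats. Mxd1, an antagonist of Myc, had 9.28, 9.12 and 8.04 at day 3, against 10.76, 10.85 and 10.89 at day 1, and fell by 2.02 on the log2 scale (limma adjusted p = 0.00441). Ddit4, a hypoxia-induced inhibitor of mTORC1, had 10.93, 11.79 and 11.15 at day 3, against 13.16, 13.30 and 12.23 at day 1, and fell by 1.61. Its limma adjusted p was 0.0506 when day 1 rat 1 was left out, 0.0514 for day 3 rat 6 and 0.0504 for day 3 rat 7. Sesn1, a stress-induced inhibitor of mTORC1, had 10.29, 10.15 and 10.68 at day 3, against 9.29, 9.27 and 9.07 at day 1, and rose 2.25-fold. The other calls, named here after their values were seen, were Mtor, Mlst8 and Akt1s1 among the higher genes and Max, Mdm2 and Eif4ebp1 among the lower. Whether each of these calls held without single rats was not looked at. Akt1s1 at day 1 and Max at day 3 lay near the array median of 6.47. Mtor, the kinase of mTORC1, had 9.23, 9.48 and 9.36 at day 3, against 8.97, 9.02 and 8.85 at day 1 (change 0.41). Myc, a driver of ribosome production, had 10.16 ± 0.25 at day 3 and 10.47 ± 0.24 at day 1 (SD, n = 3; limma adjusted p = 0.232), with overlapping days.

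**Figure D5:**
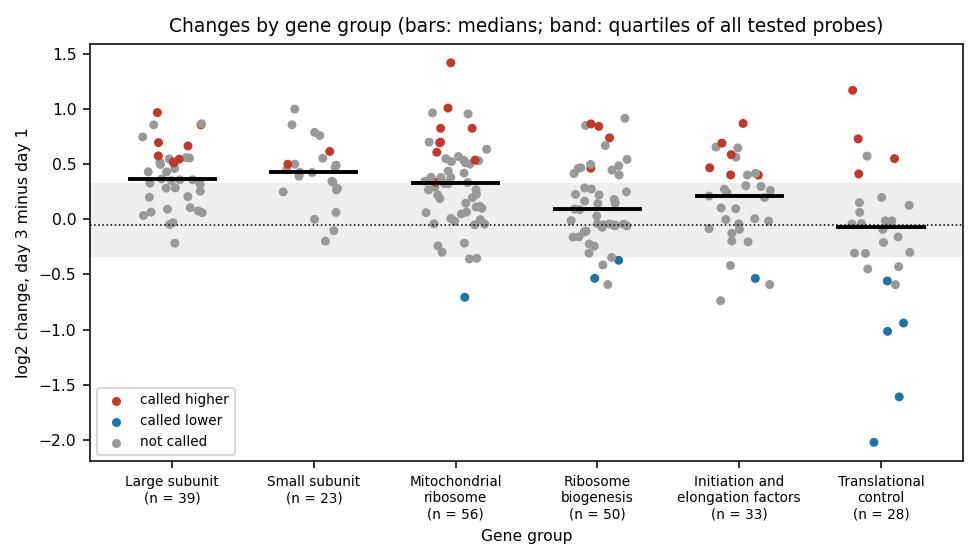
Log2 change (day 3 minus day 1) of each tested gene by group, 1 point a gene, red where called higher, blue where called lower and grey where not called; thick bars are group medians, the dotted line is the median of all tested probes and the band their quartiles. The medians of both subunits (0.37 and 0.43) lie above the upper quartile of all probes (0.32), and the translational control genes spread most widely.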

How the data were processed

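Total RNA of 6 implants was labelled with biotin and hybridised to Illumina bead arrays. The deposited values are linear intensity values, 1 per probe and array, and limma is the tool that the submitters' processing notes list. They had been quantile normalized (sorted columns differ by at most 0.535 units); no source used here states whether the authors corrected background. A deposited table before normalization has 12 columns of per-sample values whose headers match no label, so it was not used. The deposited values then went through normexp with an offset of 50 (limma 3.58.1, R 4.3.3) and onto a log2 scale. Probes above the array median on at least 3 of 6 arrays were tested with lmFit and eBayes, two-sided, without covariates. The fitting code was run on simulated data with independent noise in each probe. That setting holds no shift shared by many probes of a rat, so it lends the calls above no support. Gene symbols are the platform's, and 66 of the 67 members matched GRCr8 by Entrez identifier, with the same symbol. The members, lists and tests were chosen with earlier results of these data known. Named were all called members, the other matches, a set fixed for its roles, the 3 uncalled members with the largest change and, from each list, the 3 called genes with the largest change (mitochondrial ribosomal proteins were described by counts and median only). The p-values measure the spread between rats. Alternatives were background, filter, array weights, variance prior, cyclic loess, rats left out, 1 probe per gene and standard subunits only.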

Additional observations from a re-analysis of the deposited data

How the results depend on the processing

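The median change of all members stayed above 0 in every fit run, from 0.27 without day 1 rat 2 to 0.52 without day 1 rat 3, and was 0.29 with cyclic loess. Counts of calls moved most, and the causes were not tested. With array weights, 6123 of all probes, 36 members, 23 large and 13 small subunit names were called (members 58.1%, all probes 26.1% higher), with weights of 4.57, 0.29 and 0.336 for day 1 rats 1, 2 and 3, so day 1 rested mostly on rat 1 there, and the difference of the subunits' medians was 0.0054. With cyclic loess 6 members and 0 small subunit names were called in limma (9 small subunit names at an unadjusted p under 0.05). The members' share was 9.68% there, below the 17.2% of all probes called higher. Small subunit calls numbered 1 without the filter (all members 10.4%, all probes 8.32% higher). They numbered 4 with an intensity trend (all members 21%, all probes 17% higher). Without day 1 rat 3 and day 3 rat 6, 24 members were called, 13 large and 11 small, with 18% of all probes higher. Leaving out single rats gave 2016 to 4902 calls over all probes, 0 to 33 over members, 0 to 21 large and 0 to 12 small, and a subunit difference of -0.12 to 0.019. Signs turned for members near 0. With cyclic loess Rplp0 had -0.13, Rplp2 0.046, Rpl36al1 -0.041 and Rps19bp1 0.11. Leaving out single rats gave -0.028 to 0.070 for Rplp0, -0.18 to 0.066 for Rplp2, -0.035 to 0.19 for Rpl36al1 and -0.058 to 0.071 for Rps19bp1. Using 1 probe per gene changed nothing, since each member has 1. An added offset draws log2 changes of dim probes toward 0, and its size was not varied, so how far it did so here was not tested. No paired analysis was possible because the rats of both days carry different numbers.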
